A study of Homo sapiens with 8 samples.

Results

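The genes described here are 10 regulators and surface proteases of epithelial cells, namely the splicing factors ESRP1 and ESRP2, the RNA-binding protein RBM47, the transcription factors OVOL1, OVOL2, GRHL1, ELF3 and EHF, and the membrane-anchored serine proteases ST14 and PRSS8. They were looked up by gene symbol in an expression table of 25603 genes, and all 10 were present. The set was selected on measured values of this same comparison, the expression differences between EZHi and vehicle libraries. The values of its members are therefore given as a description. Where calls of members are given, nothing is read from them. The cells were HepG2, a line derived from a human hepatocarcinoma, exposed for 4 days either to 2 inhibitors of EZH1/2 (UNC1999 and Valmetostat Tosylate, 1 µM of each, referred to as EZHi) or to vehicle alone (0.2% DMSO per the labels), and their mRNA was sequenced. There were 4 libraries per group, numbered 1 to 4 in both groups, all from the same line grown with fetal bovine serum, insulin and dexamethasone. The comparison asks which genes change in level when EZH1/2 activity is blocked. The study describes the libraries of each group as independent biological replicates.

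Epithelial identity is maintained at several layers. ESRP1 and ESRP2 bind RNA and impose the epithelial pattern of alternative splicing, for instance on FGFR2 and CD44 transcripts. Transcription factors of the grainyhead (GRHL), ovo-like (OVOL) and epithelial ETS (ELF3, EHF) families activate junction and barrier genes or repress the ZEB and SNAIL factors that drive the epithelial-to-mesenchymal transition (EMT). At the cell surface, matriptase (ST14) and prostasin (PRSS8) activate each other and further substrates and are held in check by the inhibitors SPINT1 and SPINT2. EZH1 and EZH2 are the catalytic subunits of PRC2, which deposits the repressive H3K27me3 mark and often resides at silent developmental genes with CpG-rich promoters.

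Values are regularized log2 expression corrected for transcript length. An estimated FPKM (fragments per kilobase of transcript, scaled to library size) was derived from them to compare genes with each other. Library totals on this common scale ran from 24355567 to 27314450 normalized reads, and the read depth itself is unknown. Normalized reads are values taken out of the log and multiplied by transcript length. They carry the shrinkage of the regularized log and are not read counts. All 8 listed hepatocyte markers were well expressed, with HNF4A at an estimated FPKM of 266 in vehicle and 273 in EZHi libraries. Of these markers FGB, a fibrinogen chain, rose by 0.92 (limma adjusted p = 0.00167), from 108 to 203, and the other 7 were not called. With the replicate number as a block, APOA1 (0.42, adjusted p = 0.00812) and APOB (0.36, adjusted p = 0.00155) were called higher as well and ALB (-0.28, adjusted p = 0.0314) lower. Of 8 markers of blood, endothelial, stromal and basal epithelial cells, 3 were in the table (PECAM1, COL1A1 and PDGFRB), with a summed estimated FPKM of 13.8 to 16.6 in vehicle and 16.4 to 19.1 in EZHi libraries, and the leukocyte marker PTPRC was not among them. In these bulk samples, fewer cells expressing a gene and less RNA per cell cannot be told apart.

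The members covered a wide range of levels in vehicle-treated HepG2 cells. ESRP2 was the most abundant, at an estimated FPKM of 74.1 ± 3.54 (SD, n = 4). A middle group held ELF3 at 14.7, PRSS8 at 13.9, RBM47 at 11.2 and GRHL1 at 8.06, and each overlapped its neighbour in this order across libraries. ST14 followed at 1.79. The remaining genes lay below 1, with OVOL2 at 0.622 and ESRP1 at 0.490 overlapping in range, EHF at 0.203 and OVOL1 at 0.135. In EZHi libraries ESRP2 was again the highest, at 50.7 ± 1.86. ESRP1, at 1.53 (range 1.12 to 1.91), then lay above OVOL2, at 0.786 (range 0.413 to 1.09), and OVOL1, at 0.250, overlapped EHF, at 0.206.

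**Figure D1:**
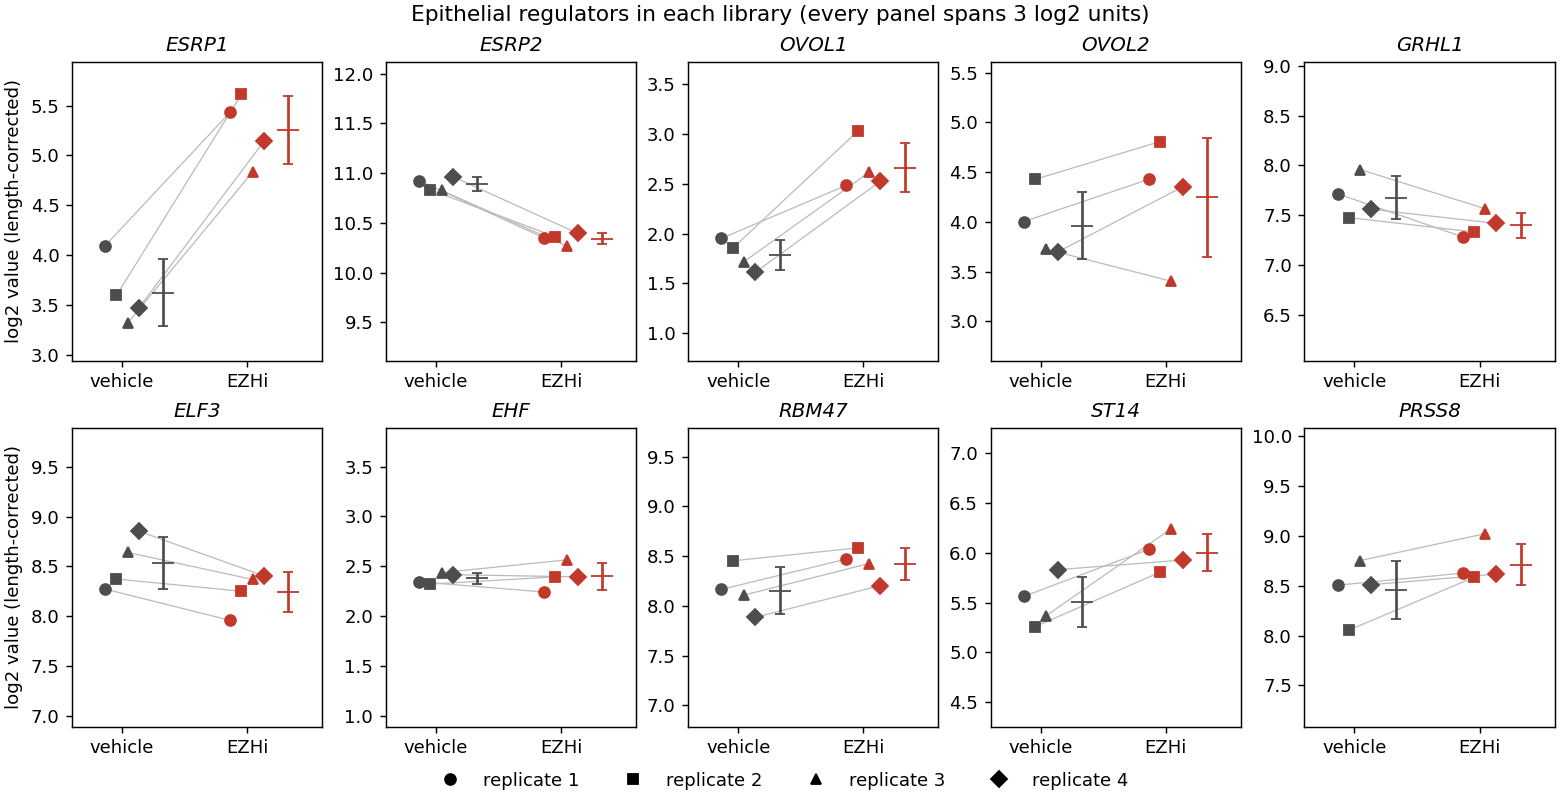
Length-corrected log2 value (y axis) of each of the 10 genes in the 4 vehicle (grey) and 4 EZHi (red) libraries. Marker shapes give the replicate number, thin lines join libraries of equal number, and the horizontal bars with whiskers show the group mean ± SD. The groups are apart for ESRP1, OVOL1 and ESRP2 and overlap for the other 7 genes.

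Across the 10 genes, 7 had a higher and 3 a lower mean in EZHi libraries, with a median difference of 0.26 on the log2 scale, beside a median of -0.0077 over the 20153 genes tested. Only ESRP1 and OVOL1 lay higher, and ESRP2 lower, in all EZHi than in all vehicle libraries, against 10.7% of all genes tested that were higher and 7.93% that were lower in this sense. In a limma fit over all genes tested, the same 3 genes had a Benjamini-Hochberg adjusted p under 0.05 (called), 2 of them higher and 1 lower, and the background was 8.85% called higher and 4.27% called lower. With the replicate number as a block, 5 members were called higher (ESRP1, OVOL1, RBM47, ST14 and PRSS8) and 3 lower (ESRP2, GRHL1 and ELF3), where the background was 14.9% and 15.1%, or 30.0% in either direction. The EZHi library was higher in all 4 pairs of equal number for 5 members and lower in all 4 for 3, beside 20.6% and 24.2% of all genes tested. Nothing is read from these counts, since this contrast was known when the genes were chosen.

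**Figure D2:**
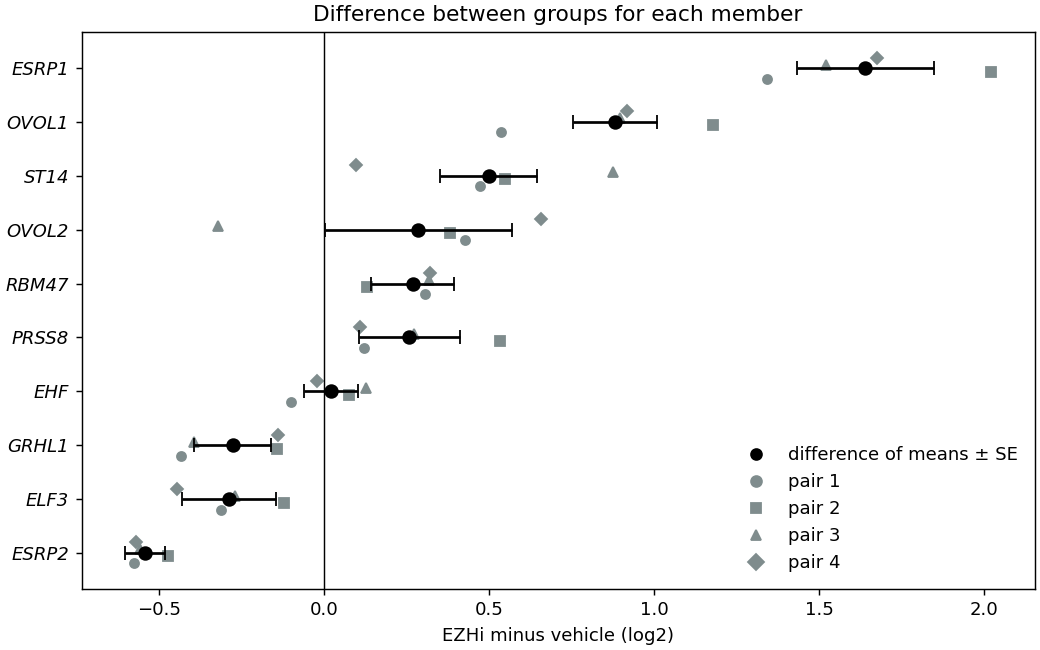
Difference between EZHi and vehicle on the log2 scale (x axis) for each gene (y axis). Black points with whiskers are the difference of group means ± SE of the fit without a block, and grey markers are the differences between libraries of equal number. ESRP1 is at 1.64 and OVOL1 at 0.88 on the right, ESRP2 at -0.54 on the left, and the other 7 genes lie between -0.29 and 0.50.

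The splicing regulators ESRP1 and ESRP2 moved in opposite directions. ESRP1 (ENSG00000104413, chr8:94641074-94707466, plus strand, GRCh38), which promotes epithelial exon choice, had log2 values of 4.09, 3.59, 3.32 and 3.47 in vehicle libraries 1 to 4 and 5.44, 5.62, 4.84 and 5.14 in EZHi libraries. Every EZHi library exceeded every vehicle library, with a gap of 0.74 between the groups. The mean went from 3.62 ± 0.34 to 5.26 ± 0.34 (SD, n = 4), a difference of 1.64 (SE 0.21) or 3.11-fold, and differences between libraries of equal number ran from 1.34 to 2.02. Converted to normalized reads as defined above, the values are 22.6 to 38.8 in vehicle and 64.9 to 111 in EZHi libraries.

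ESRP2 (ENSG00000103067, chr16:68229033-68238102, minus strand), the paralogue with the same splicing role, had values of 10.93, 10.83, 10.83 and 10.96 in vehicle and 10.35, 10.36, 10.27 and 10.39 in EZHi libraries. All 4 EZHi libraries were below all 4 vehicle libraries, and the spread within each group was the narrowest among the well-expressed members. The mean was 10.89 ± 0.07 in vehicle and 10.34 ± 0.05 in EZHi libraries, a difference of -0.54 (SE 0.06) or 1.46-fold lower. Highly expressed genes (average estimated FPKM of 10 or more) had a median difference of -0.095, and ESRP2 was at -0.43 after quantile normalization and at -0.45 after centring on that class.

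Because ESRP2 was far more abundant, the summed level of the paralogues followed ESRP2. The sum of both estimated FPKM values was 74.5 ± 3.58 in vehicle and 52.3 ± 2.07 in EZHi libraries, with no overlap. Within this sum ESRP1 made up 0.656% ± 0.152 (range 0.546 to 0.871) in vehicle libraries and 2.91% ± 0.606 (range 2.26 to 3.60) in EZHi libraries. ESRP1 transcripts thus remained a small minority of ESRP transcripts after EZHi, at the level of estimated FPKM. The deposited values are per gene and say nothing on protein or on exon use.

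**Figure D3:**
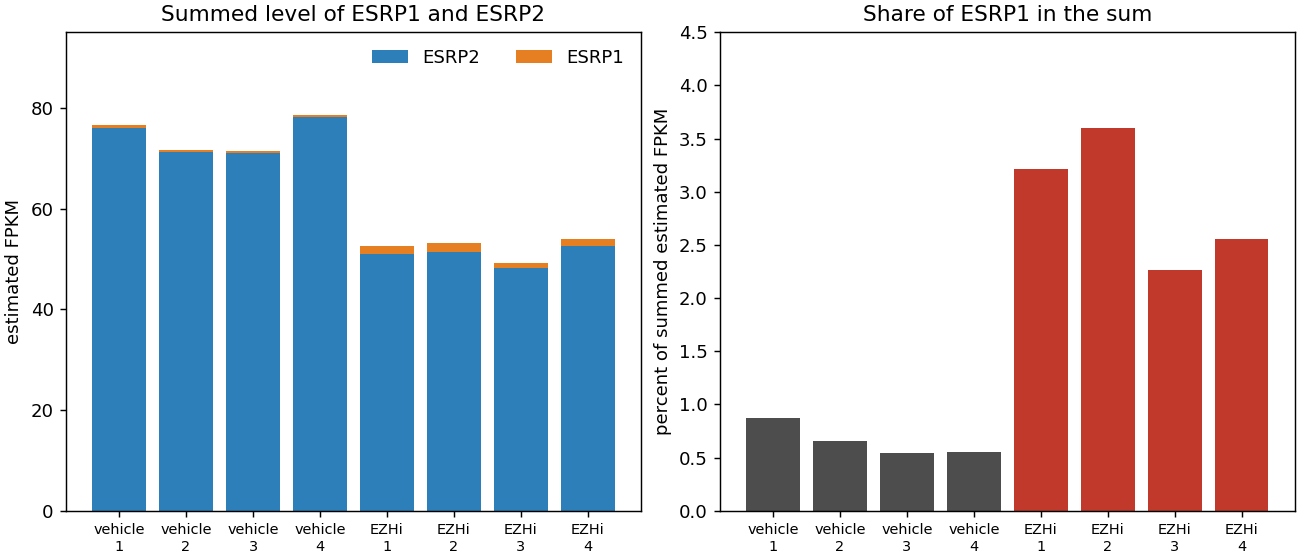
Left, estimated FPKM of ESRP2 (blue) and ESRP1 (orange) stacked for each library, where the sum is 71.3 to 78.5 in vehicle and 49.3 to 54.0 in EZHi libraries. Right, the share of ESRP1 in that sum in percent, at most 0.871% in vehicle and at least 2.26% in EZHi libraries.

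RBM47 (ENSG00000163694, chr4:40423267-40630875, minus strand), an RNA-binding protein of epithelial and intestinal tissue that also serves as a cofactor of APOB mRNA editing, had values of 8.17, 8.45, 8.11 and 7.89 in vehicle and 8.47, 8.58, 8.43 and 8.20 in EZHi libraries. Within each pair of equal number the EZHi library was the higher, by 0.13 to 0.32, but the groups overlapped. The means were 8.15 ± 0.23 and 8.42 ± 0.16, with a difference of 0.27 (SE 0.13). Replicate 2 was the highest and replicate 4 the lowest library of both groups.

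Among other RNA-binding regulators of splicing, 15 of 21 listed genes were tested, 0 were called higher and 1 lower in the limma fit (0 and 5 at an unadjusted p under 0.05), with a median difference of -0.079. Counts of this and the later lists stand beside 8.85% called higher and 4.27% lower over all genes tested (14.9% and 15.1% with the block). No such share was computed at an unadjusted p, so those counts are not read. The lists were written with earlier results of these data known. QKI, a STAR-family splicing factor, was at 10.97 ± 0.08 in vehicle and 10.69 ± 0.12 in EZHi libraries, a difference of -0.27 (limma adjusted p = 0.043, and 0.00873 with the block). The call without the block did not hold after quantile normalization, where the difference was -0.15, or after centring, where it was -0.18. That call held in 1 of 8 fits that left out a library, without EZHi replicate 1 (adjusted p up to 0.126). MBNL2, a muscleblind factor, was at -0.49 (adjusted p = 0.056, and 0.000665 with the replicate block), and RBM38 at -0.21 (adjusted p = 0.36, and 0.00699 with the block).

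Of 14 genes with transcripts known to be spliced by ESRP proteins, 13 were tested and 2 were called higher, 0 lower in the limma fit (3 and 2 at an unadjusted p under 0.05), with a median difference of -0.0045. FGFR1, a fibroblast growth factor receptor, rose by 0.73 (adjusted p = 0.0153), from an estimated FPKM of 20.1 to 33.0. ENAH, an actin regulator, rose by 0.55 (adjusted p = 0.0399), from 8.81 to 12.8. With the block, the limma adjusted p was 2.54e-05 for FGFR1 and 0.000206 for ENAH. FGFR2, the classical ESRP target, went from 2.19 to 4.33 with a difference of 0.99 (adjusted p = 0.0522, and 6.55e-05 with the block), and the polarity gene SCRIB had a difference of -0.21 with an SD near 1.15 in both groups (adjusted p = 0.887). FGFR1 was not called without EZHi replicate 4 (adjusted p = 0.0544). ENAH was called in 2 of 8 such fits, those without vehicle replicate 2 or EZHi replicate 3 (adjusted p up to 0.106 in the others). These are totals per gene, over all isoforms.

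The ovo-like zinc-finger repressors were both weakly expressed. OVOL1 (ENSG00000172818, chr11:65787063-65797214, plus strand) had log2 values of 1.95, 1.85, 1.72 and 1.61 in vehicle and 2.49, 3.03, 2.61 and 2.53 in EZHi libraries. The groups did not overlap, and EZHi replicate 2 stood highest. The mean was 1.78 ± 0.15 in vehicle and 2.66 ± 0.25 in EZHi libraries, a difference of 0.88 (SE 0.13) or 1.84-fold. Converted to normalized reads, which are not counts, the values are 5.41 to 6.86 in vehicle and 9.93 to 14.5 in EZHi libraries. In this range the regularized log pulls values together, so the fold may be understated. On a scale of log2 of the estimated FPKM plus a pseudocount of 0.5, the difference was 0.24. Of the tested genes with an average estimated FPKM under 1, 6.30% had a larger difference than OVOL1.

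OVOL2 (ENSG00000125850, chr20:17956979-18059188, minus strand), known for repressing ZEB1, had values of 4.00, 4.43, 3.73 and 3.70 in vehicle and 4.43, 4.81, 3.40 and 4.35 in EZHi libraries. EZHi replicate 3 was the lowest of all 8 libraries and EZHi replicate 2 the highest. The means were 3.96 ± 0.34 and 4.25 ± 0.60, a difference of 0.28 with an equal SE of 0.28 (0.157 with the replicate block), and the groups overlapped. Without EZHi replicate 3 the difference was 0.57, and without EZHi replicate 2 it was 0.098. In the sum of both genes, the OVOL1 share was 18.2% ± 2.57 in vehicle and 25.5% ± 7.50 in EZHi libraries, the latter reaching 36.7% in replicate 3, where OVOL2 was low.

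For promoters, RefSeq transcription starts (GRCh38.p14) were at hand for 4 of the 10 members, GRHL1, ELF3, EHF and RBM47, with 8 starts in all. ESRP1, ESRP2, OVOL1, OVOL2, ST14 and PRSS8 had none. The 250 bases upstream of the GRHL1 start (chr2:9951443-9951692, plus strand) and of the ELF3 start (chr1:202010337-202010586, plus strand) are shown because they are the CpG-richest and a CpG-poor promoter among these members, both for genes with a lower mean after EZHi. CpG dinucleotides are in capitals.
GRHL1: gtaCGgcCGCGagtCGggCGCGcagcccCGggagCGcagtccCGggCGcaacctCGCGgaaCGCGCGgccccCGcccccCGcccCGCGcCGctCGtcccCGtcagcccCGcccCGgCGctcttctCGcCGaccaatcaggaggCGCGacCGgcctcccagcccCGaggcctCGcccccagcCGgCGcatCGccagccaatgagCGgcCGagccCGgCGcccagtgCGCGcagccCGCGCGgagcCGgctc
ELF3: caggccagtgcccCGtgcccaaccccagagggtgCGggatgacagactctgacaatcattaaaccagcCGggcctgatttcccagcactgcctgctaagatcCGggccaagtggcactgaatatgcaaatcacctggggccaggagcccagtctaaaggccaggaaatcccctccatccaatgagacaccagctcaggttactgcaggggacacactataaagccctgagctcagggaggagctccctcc
The GRHL1 stretch holds 45 CpG dinucleotides and the ELF3 stretch 4. In the window from 250 bases before to 50 after the start, GRHL1 had 52 CpG dinucleotides and a GC content of 79.7%, and only 0.780% of the 35116 starts in the reference table had as many CpG, the median being 14. ELF3 had 7 in its window at a GC content of 59.0%, the 4 RBM47 starts had 5 to 19, and the 2 EHF starts had 3 and 8.

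Both strands of these windows were also searched for CAGGTG, the E-box that SNAIL and ZEB factors recognise, and for AACNNGTT, the grainyhead core, which as a palindrome includes AACCGGTT. CAGGTG was found once for ELF3, at position -120 from the start, and once in 1 of the RBM47 windows, at position -208, against 20.6% of all starts with a match. AACNNGTT was found in none of the 8 windows, against 3.52% of all starts, and AACCGGTT occurred in 0.134% of all starts. A match is a description of the letters only.

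GRHL1 (ENSG00000134317, chr2:9951693-10002277, plus strand), a grainyhead factor known for desmosomal and epidermal barrier genes, had values of 7.72, 7.48, 7.96 and 7.56 in vehicle and 7.28, 7.33, 7.57 and 7.42 in EZHi libraries. In each pair of equal number the EZHi library was lower, by 0.14 to 0.43, and the ranges overlapped through EZHi replicate 3. The means were 7.68 ± 0.21 and 7.40 ± 0.12, a difference of -0.28 (SE 0.12). Without vehicle replicate 3, the highest library, the difference was -0.18. GRHL2 was not analysed here.

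The ETS factor ELF3 (ENSG00000163435, chr1:202007945-202017183, plus strand), active in many simple epithelia, had values of 8.27, 8.37, 8.64 and 8.85 in vehicle and 7.96, 8.25, 8.37 and 8.41 in EZHi libraries. As for GRHL1, the EZHi library was lower in all 4 pairs, by 0.12 to 0.45, while the groups overlapped. The means were 8.53 ± 0.26 and 8.25 ± 0.20, a difference of -0.29 (SE 0.14), which was -0.18 without vehicle replicate 4.

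Its relative EHF (ENSG00000135373, chr11:34621093-34663288, plus strand) was weakly expressed, with 2.34, 2.32, 2.44 and 2.41 in vehicle and 2.24, 2.39, 2.56 and 2.39 in EZHi libraries. Means of 2.38 ± 0.06 and 2.40 ± 0.13 differed by 0.019 (SE 0.08), and pair differences had both signs. Converted to normalized reads, these values are 6.62 to 7.18 in vehicle and 6.27 to 7.84 in EZHi libraries, a range near that of OVOL1. Being shrunken values, they do not give the number of reads behind EHF, and their narrow spread is not a counting error. ELF3 made up nearly all of the ELF3 and EHF sum, in which EHF contributed 1.39% in vehicle and 1.71% in EZHi libraries.

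Among relatives of these factors, 10 of 15 listed genes were tested, 2 were called higher and 0 lower in the limma fit (2 and 3 at an unadjusted p under 0.05), and the median difference was 0.065. KLF4, a Krüppel-like factor of differentiated epithelia, rose by 0.69 (limma adjusted p = 0.00633), from an estimated FPKM of 0.293 to 0.478. ELF5, an ETS factor of glandular epithelia that lies next to EHF on chromosome 11, rose by 0.53 (adjusted p = 0.023, and 0.00581 with the block), from 0.919 to 1.32. The ELF5 call was lost after quantile normalization and in fits without vehicle replicates 1 or 4 or EZHi replicates 2 or 4 (adjusted p up to 0.0595). KLF5, which promotes proliferation in epithelia, went from 9.46 to 6.76 with a difference of -0.50 (adjusted p = 0.163, and 0.00076 with the block), and ELK3 had a difference of 0.25 (adjusted p = 0.605).

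Of the transcription factors that repress epithelial genes, 4 of the 6 tested (of 11 listed) were called higher, 0 lower in the limma fit (5 and 1 at an unadjusted p under 0.05), with a median difference of 0.76. The shares over all genes tested were 8.85% higher and 4.27% lower, and this list was written with earlier results of these data known. TWIST2 rose by 1.28 (adjusted p = 0.000119), from an estimated FPKM of 0.458 to 1.11. SNAI2 rose by 1.00 (adjusted p = 0.000931), from 0.149 to 0.300. SNAI1 rose by 0.95 (adjusted p = 0.00205), from 1.54 to 2.93, and the homeobox gene GSC by 0.57 (adjusted p = 0.00166), from 0.122 to 0.182. All 4 were called in each of the 8 fits that left out a library. The GSC values hardly varied in vehicle libraries, from 1.64 to 1.65 (SD 0.0057). Its 0.122 may therefore be a floor of the scale and not a level, which was not tested, and its adjusted p rests on that narrow spread. With a minimum estimated FPKM of 1, TWIST2, SNAI2 and GSC were not tested, and 1 gene of the list was called higher. SNAI3 had a difference of 0.35 (adjusted p = 0.102, and 0.0321 with the block). ZEB1, the target of OVOL2 named above and the most abundant of those given here, was at 12.7 in vehicle and 9.69 in EZHi libraries, a difference of -0.39 (adjusted p = 0.132, and 0.00177 with the block). ESRP1 and OVOL1 were thus higher in the same libraries as SNAI1, SNAI2 and TWIST2.

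**Figure D4:**
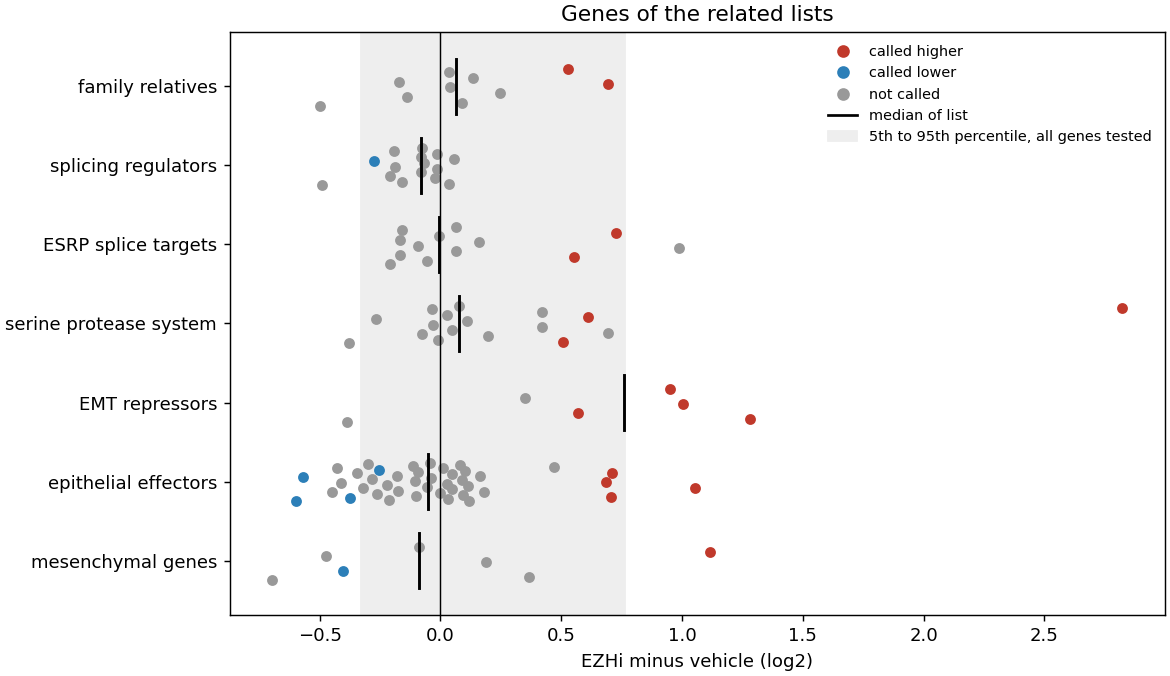
Difference between EZHi and vehicle on the log2 scale (x axis) for the tested genes of the 7 related lists (y axis). Red and blue points were called higher and lower, grey points were not called, vertical bars give each list's median, and the shaded band spans the 5th to 95th percentile of all genes tested (-0.33 to 0.76). The median of the EMT repressors is at 0.76 and those of the other lists lie between -0.088 and 0.076.

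The surface protease ST14 (ENSG00000149418, chr11:130159782-130210362, plus strand), or matriptase, had values of 5.56, 5.26, 5.37 and 5.83 in vehicle and 6.03, 5.80, 6.24 and 5.93 in EZHi libraries. EZHi was higher in all 4 pairs, by 0.10 to 0.88, and the ranges touched only through vehicle replicate 4, the highest of its group, and EZHi replicate 2. The means were 5.50 ± 0.25 and 6.002 ± 0.19, a difference of 0.50 (SE 0.15) or 1.41-fold, which was 0.61 without vehicle replicate 4. Of the tested genes with an average estimated FPKM of 1 to 10, 11.7% had a larger difference.

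Its partner PRSS8 (ENSG00000052344, chr16:31131433-31135727, minus strand), or prostasin, had values of 8.51, 8.05, 8.75 and 8.51 in vehicle and 8.63, 8.59, 9.02 and 8.62 in EZHi libraries. Replicate 3 was the highest and replicate 2 the lowest library in both groups. The means were 8.46 ± 0.29 and 8.71 ± 0.21, a difference of 0.26 (SE 0.15), and the groups overlapped. Pair differences of 0.11 to 0.53 were all positive, and without vehicle replicate 2 the difference was 0.12.

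Of 22 listed genes of the same protease system, 17 were tested, 3 were called higher and 0 lower in the limma fit (5 and 0 at an unadjusted p under 0.05), with a median difference of 0.076. CORIN, a transmembrane protease that processes natriuretic peptides, rose by 2.82 (adjusted p = 0.000345), from an estimated FPKM of 0.199 to 1.52. TMPRSS4 rose by 0.61 (adjusted p = 0.00674), from 0.147 to 0.227. SCNN1A, the alpha subunit of the epithelial sodium channel that prostasin can activate, rose by 0.51 (adjusted p = 0.027, and 0.000383 with the block), from 33.0 to 46.5. The SCNN1A call was lost without vehicle replicate 4 or EZHi replicates 1, 3 or 4 (adjusted p up to 0.0771). TMPRSS6, or matriptase-2, a regulator of hepcidin in the liver, went from 9.32 to 14.7 with a difference of 0.69 (adjusted p = 0.0544, and 0.000486 with the block), and TMPRSS2 had one of 0.42 (adjusted p = 0.14, and 0.00644 with the block). The inhibitors SPINT1 and SPINT2, named for their role here and not by the rule for genes, had differences of 0.03 (adjusted p = 0.938) and -0.07 (adjusted p = 0.736), and SPINT1 at 13.1 was more abundant than SPINT2 at 0.311 in vehicle libraries.

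Junction, polarity and keratin genes that commonly follow these regulators went both ways, with 42 of 46 listed genes tested, 4 called higher and 4 lower (4 and 11 at an unadjusted p under 0.05), and a median difference of -0.050. The 4 higher genes were CDH3 (P-cadherin) at 1.05 (adjusted p = 0.00542), the tight junction genes CGN at 0.69 (adjusted p = 0.00142) and TJP3 at 0.71 (adjusted p = 0.0158), and BSPRY at 0.71 (adjusted p = 0.0293). The TJP3 call was lost without EZHi replicate 4 (adjusted p = 0.0508), and that of BSPRY after quantile normalization and without vehicle replicate 4 or EZHi replicates 1, 2 or 4 (adjusted p up to 0.0878). The 4 lower genes were KRT18, a simple-epithelium keratin, at -0.60 (adjusted p = 0.039), the desmosomal gene PKP2 at -0.57 (adjusted p = 0.0093), GRB7 at -0.37 (adjusted p = 0.0391) and LLGL2 at -0.26 (adjusted p = 0.0457). Of these, PKP2 alone was called under quantile normalization, under centring and in all 8 fits that left out a library. KRT18 and GRB7 were called in 2 of those 8 fits and LLGL2 in 1, with adjusted p up to 0.102, 0.11 and 0.124. Those fits had no block. The limma adjusted p with the block was 3.8e-05 for KRT18, 0.000778 for GRB7 and 0.0098 for LLGL2. For TJP3 and BSPRY it was 0.000554 and 0.00303. With the block, 4 genes were called higher and 13 lower, among them KRT8, whose difference was -0.45 (adjusted p = 0.151, and 0.000742 with the block). ITGA3 had a difference of 0.47 (adjusted p = 0.646). The epithelial surface genes CDH1 and EPCAM, added after their values were seen, had differences of 0.05 (adjusted p = 0.751) and -0.04 (adjusted p = 0.757).

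Of 12 mesenchymal genes, 7 were tested, 1 was called higher and 1 lower, with a median difference of -0.088. SPARC, a matricellular protein, rose by 1.12 (adjusted p = 0.00837), from an estimated FPKM of 37.3 to 80.2. CDH2 (N-cadherin) fell by 0.40 on the log2 scale (adjusted p = 0.022), from 43.1 to 32.5. The CDH2 call was lost after quantile normalization, after centring and without EZHi replicates 1, 3 or 4 (adjusted p up to 0.0668). TAGLN had a difference of -0.70 (adjusted p = 0.258, and 7.73e-05 with the block) and S100A4 one of -0.47 (adjusted p = 0.432).

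Genes around the members were examined to see whether a difference was shared along the chromosome and where overlap could affect a value. Counting ignored strand and left out reads touching exons of several genes. Of 29 overlapping or adjacent genes, 26 were tested, 3 were called higher and 2 lower, beside 8.85% and 4.27% of all genes tested. With the replicate block, 3 were called higher and 5 lower, beside 14.9% and 15.1%. Next to ESRP1, VIRMA-DT differed by 0.26 (adjusted p = 0.101) and DPY19L4, 12236 bases away, by 0.03 (adjusted p = 0.862), so neither was called beside the 1.64 of ESRP1. Around OVOL1, AP5B1 differed by 0.037 (adjusted p = 0.907) and CFL1 by -0.095 (adjusted p = 0.713). The antisense OVOL1-AS1, which lies within OVOL1, was below the filter on level, with means of 0.371 and 0.448.

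Around ESRP2, 1 neighbour was called in the fit without the block. PLA2G15, 7201 bases to its right, fell by 0.35 on the log2 scale (adjusted p = 0.0363), a call lost after quantile normalization and centring and held in 2 of 8 fits that left out a library, those without vehicle replicate 3 or EZHi replicate 2 (adjusted p up to 0.105 in the others). NFATC3, which overlaps ESRP2 at one end on the opposite strand, had a difference of -0.19 (adjusted p = 0.109), and the overlapping ENSG00000261469 had 0.035 (adjusted p = 0.902), while ENSG00000260891 to the left had -0.115 (adjusted p = 0.509). With the replicate block, PLA2G15 and NFATC3 were called lower, and ENSG00000261469 and ENSG00000260891 were not called.

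OVOL2 shares its annotated span with far more abundant genes. SNX5, on the same strand, was at an estimated FPKM of 587 in vehicle and 488 in EZHi libraries and fell by 0.27 on the log2 scale (adjusted p = 0.0381), a call lost after quantile normalization and centring and held in the 2 fits without vehicle replicate 3 or EZHi replicate 1 of 8 (adjusted p up to 0.109 in the others). MGME1 and SNORD17 lay in the same span with differences of -0.18 (adjusted p = 0.284) and -0.30 (adjusted p = 0.286). With the replicate block, SNX5, MGME1 and SNORD17 were called lower and KAT14, named next, higher. Further out, KAT14 rose by 0.37 (adjusted p = 0.0263), a call lost after quantile normalization and without vehicle replicates 3 or 4 or EZHi replicates 1, 2 or 4 (adjusted p up to 0.0792), and RRBP1 differed by 0.001 (adjusted p = 0.997). How far reads of these genes enter the OVOL2 value, or OVOL2 reads were left out where exons overlap, was not tested.

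ELF3 overlaps the antisense ELF3-AS1, which starts within the ELF3 promoter shown above, on the minus strand, and had means of 5.12 and 4.98 (adjusted p = 0.751), and ENSG00000249007, below the filter. Its flanking genes RNPEP (-0.085, adjusted p = 0.631) and GPR37L1 (-0.10, adjusted p = 0.73) were not called. None of the genes next to GRHL1, ST14 or PRSS8 was called, the nearest being KAT8, 39 bases from PRSS8, with a difference of -0.12 (adjusted p = 0.311). PRSS36 (-0.088, adjusted p = 0.76), APLP2 (0.050, adjusted p = 0.73), ZBTB44 (0.125, adjusted p = 0.538), ENSG00000269973 (-0.032, adjusted p = 0.871) and ENSG00000260077 (0.035, adjusted p = 0.898) complete these loci, with ENSG00000289033 below the filter. Beside EHF, ELF5 was called higher as given above and APIP was not (0.038, adjusted p = 0.884). APBB2, beside RBM47, rose by 0.32 (adjusted p = 0.0437), but was called only without vehicle replicate 4 or EZHi replicate 1 among the 8 fits that left out a library (adjusted p up to 0.123 in the others), and CHRNA9 differed by -0.019 (adjusted p = 0.886). With the replicate block APBB2 was called higher.

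The genes whose log2 values over the 8 libraries were most like those of ESRP1, by Pearson correlation among all genes tested, were PLCB2 (0.991), BEND3P1 (0.991) and RASGEF1A (0.990), with differences of 1.04, 1.04 and 1.12. BEND3P1 is a pseudogene, and its reads may be shared with its parent gene. For OVOL1 they were CCDC136 (0.989), CD33 (0.984) and AFAP1L2 (0.982), with differences of 0.80, 1.27 and 0.77. Such correlations are carried mostly by the difference between groups. After removal of the group means, the strongest relations among members over the 8 libraries were a positive one of GRHL1 with PRSS8 (0.86) and a negative one of OVOL2 with PRSS8 (-0.85), followed by negative ones of OVOL2 with EHF (-0.76) and with ST14 (-0.75). Differences between replicate numbers were not removed, and libraries of equal number deviated together, so the 8 libraries are not independent units here. These correlations share libraries, are the most extreme among all pairs of members, and are given as a description.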

How the data were processed

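HepG2 cells treated with EZHi or vehicle were profiled by paired-end RNA-seq of 150 bp (4 libraries per group, with groups and replicate numbers as titled by the submitters). Per the study's methods, the authors mapped reads to hg38 with HISAT2 (version 2.2.1 in the submitters' processing notes) and counted them per gene with HTSeq 0.9.1 (union mode, no strand, minimum alignment quality 10), a mode that leaves out reads touching exons of several genes. The authors removed genes with under 10 reads over all samples and deposited log2 values, made with the regularized log of DESeq2 (version 1.40.2 in those notes) and corrected for mean transcript length. For HISAT2 and DESeq2, the authors' methods name other versions than the notes. The shrinkage tends to understate differences of genes with few reads.

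The table held 25604 rows, with 1 repeated identifier dropped. Coordinates came from GENCODE release 44, where 25594 identifiers matched, and promoters from RefSeq (GRCh38.p14). Estimated FPKM is 2 to the power of the value, divided by 25.6, which scales to the mean library total. Read depth is unknown, so no counting interval is given. Genes reaching an average of 0.1 estimated FPKM entered a limma 3.58.1 fit in R 4.3.3 (trended prior, two-sided, Benjamini-Hochberg adjustment over 20153 genes, adjusted p under 0.05), which was tested on simulated data. Python 3.11.15 was used for summaries.

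Libraries of equal number deviated together from their group means (correlations 0.310, 0.558, 0.634 and 0.216), so the numbers were taken to pair the samples. The main fit had no block, and the replicate block was an alternative. Every SE given for a member, and each fit that left out a library, is without the block and ignores the pairing. With the block the SE was 0.065 for ELF3, 0.059 for RBM47, 0.076 for PRSS8 and 0.082 for EHF. It was 0.128 for ESRP1, 0.043 for ESRP2, 0.107 for OVOL1, 0.157 for OVOL2, 0.076 for GRHL1 and 0.127 for ST14. The members and gene lists were chosen with earlier results of these data known. Named were all members, each list's called genes (at most 4 per direction) and up to 2 uncalled genes with the largest change, all neighbours, and the 3 genes most like ESRP1 and OVOL1. Alternatives were other filters, quantile normalization, centring on genes of at least 10 estimated FPKM, a pseudocount of 0.5, no trend, and leaving out each library.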

Additional observations from a re-analysis of the deposited data

Results flagged for a closer look

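In the EZHi group, PRSS8 was at 9.02 in replicate 3 while the other 3 libraries lay between 8.59 and 8.63, a gap of 0.904 of the group's range. Replicate 3 was also the highest vehicle library for PRSS8. Of 20 groups of values examined (10 genes in 2 groups), 1 stood apart in this way, and 1 is the number chance gives.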

How the results depend on the processing

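No difference of a member changed sign where it was called. ESRP1 was at 1.02 and OVOL1 at 0.24 with the pseudocount of 0.5, ESRP2 at -0.43 after quantile normalization and -0.45 after centring, and EHF at -0.14 after quantile normalization. With a minimum estimated FPKM of 1, OVOL1, OVOL2 and EHF were not tested, and ESRP1 passed through its EZHi level.

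Over all genes, the replicate block gave 3003 called higher and 3048 lower, the minimum of 1 gave 780 higher, and centring, which moved the median of all genes by 0.095, gave 319 lower. With the block, lower calls numbered 2 family relatives, 5 splicing regulators, 2 ESRP targets, 2 protease genes, 1 EMT repressor, 13 effectors, 2 mesenchymal genes and 5 neighbours, and higher calls 4 ESRP targets and 5 protease genes. With the minimum of 1, higher calls numbered 1 family relative, 1 protease gene, 1 EMT repressor and 2 effectors. Quantile normalization left 1 family relative and 1 neighbour higher, 1 effector lower, and 0 splicing regulators, 0 mesenchymal genes and 0 neighbours lower. Centring left 1 effector and 0 of those other lists lower. Without a filter 1 ESRP target was higher and 1 effector lower, without the trend 1 effector and 0 splicing regulators were lower, and the pseudocount gave 2 splicing regulators and 1 neighbour lower. The cause was not tested.

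Leaving out each library gave 1422 to 1711 genes higher and 389 to 860 lower, both lowest without EZHi replicate 4. Higher calls ranged over 1 to 2 family relatives, 0 to 2 ESRP targets, 2 to 4 protease genes, 2 to 4 effectors and 0 to 2 neighbours. Lower calls ranged over 0 to 1 family relatives, 0 to 1 splicing regulators, 0 to 1 EMT repressors, 1 to 5 effectors, 0 to 2 mesenchymal genes and 0 to 3 neighbours. Differences ranged from 1.52 to 1.80 for ESRP1, -0.56 to -0.52 for ESRP2, 0.76 to 0.94 for OVOL1, 0.098 to 0.57 for OVOL2, -0.35 to -0.18 for GRHL1, -0.38 to -0.18 for ELF3, -0.036 to 0.071 for EHF, 0.18 to 0.37 for RBM47, 0.42 to 0.61 for ST14 and 0.12 to 0.36 for PRSS8. ST14 passed the threshold without vehicle replicate 4, after centring and without the trend. Nothing is read from this, since the members were chosen on this contrast. Read depth is unknown, so what it limits could not be given.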
